A study of Mus musculus with 44 samples.

Results

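Junctions were examined whose prey, the sequence joined to a fixed chromosome break, lay in repeat windows at the centromere-side ends of 2 assembled mouse chromosomes. These windows were chr9:3000001-3040000 and chr12:3100001-3120000 (mm10), and they held 2225 of the 148726 junctions in 32 libraries, or 1.5%. Of these, 1914 lay on chromosome 9 and 311 on chromosome 12. The windows were chosen by position, as 6 windows of 10 kb that each held at least 20 junctions in the libraries with a Cas9 bait. Their Cas9 counts, which therefore only describe the choice, were 71, 55, 76 and 65 along chromosome 9 and 62 and 47 on chromosome 12, while the first window under the minimum, on chromosome 17, held 17.

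High-throughput genome-wide translocation sequencing (HTGTS) amplifies from a primer beside the fixed break, the bait, and reads across each junction into its prey. AsiSI-MEFs, mouse embryonic fibroblasts with an inducible restriction enzyme AsiSI fused to an estrogen receptor fragment, gave 26 libraries, and WT MEFs with a Cas9-induced bait break gave 6. The AsiSI-MEFs were given 3 µg/ml doxycycline for 24 h and 1 µg/ml 4-hydroxytamoxifen (4OHT) during the last 6 h, and the Cas9 guide RNA was transfected 48 h before lysis. The libraries compared the ARP2/3 inhibitor CK-666 with DMSO (6 against 6), the DNA-PKcs inhibitor NU7441, begun 1 h ahead, with DMSO (3 against 3), the N-WASP inhibitor wiskostatin with DMSO (2 against 2), nuclear actin R62D, which cannot polymerize, with empty vector (2 against 2), and, on the Cas9 bait, CK-666 with DMSO (3 against 3). The labels give strain C57BL/6, genotype WT and 4OHT for all of these samples, the Cas9 ones included. The methods call the replicates biological but do not say how the cultures were kept apart, so p-values measure the spread between these samples.

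Mouse chromosomes carry their centromere at one end, and the blocks of pericentromeric heterochromatin next to it are built of the major satellite, a short A/T-rich unit repeated head to tail in very long arrays. Most of these arrays are missing from the reference assembly, which holds only short stretches of them. The unit is transcribed at low levels, is packed by H3K9 methylation and HP1, and clusters with that of other chromosomes in chromocenters.

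On both chromosomes the first assembled base is position 3000001, so the chromosome 9 window is the very end of the assembled sequence. A tandem repeat of 234 bp, the length of the major satellite unit, filled 96.0% of it, from 3000003 to 3038419. Bases exactly 234 bp apart over the whole window, with no gaps allowed for, were identical in 69.4% of cases. Aligned with gaps to the majority sequence of 63 copies, stretches of 1 unit had a median of 10.5 differences. On chromosome 12 a single stretch of 256 bp, from 3109866 to 3110121, made up 1.28% of the window and took 310 of its 311 junctions. It was read in the opposite orientation. The 10 kb next to either window held 0 junctions. To show what the bait was joined to, a reference copy of the unit from each window is given with the bait. The chromosome 9 copy was the copy closest to the majority sequence of 63 copies, with 4 differences, at chr9:3000360-3000593 on the plus strand. The chromosome 12 copy, at chr12:3109906-3110121 on the minus strand, is 216 bp long and had 21 differences from the majority sequence and 23 from the chromosome 9 copy. It lacks the first bases of the 234 bp unit as printed for chromosome 9. These missing bases are counted among its differences and make up most of them. The bait is chr2:13271300-13271329 on the plus strand, with the AsiSI motif in capitals.
chr9 copy: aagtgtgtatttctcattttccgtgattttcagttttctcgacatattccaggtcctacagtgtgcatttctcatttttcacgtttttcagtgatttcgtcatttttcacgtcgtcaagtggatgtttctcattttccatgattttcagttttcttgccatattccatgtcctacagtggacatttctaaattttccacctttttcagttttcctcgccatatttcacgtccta
chr12 copy: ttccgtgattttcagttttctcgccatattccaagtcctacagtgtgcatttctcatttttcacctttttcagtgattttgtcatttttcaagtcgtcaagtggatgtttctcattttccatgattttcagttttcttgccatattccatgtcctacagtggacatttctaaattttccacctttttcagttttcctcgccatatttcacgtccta
bait: gaacacaccctgtcccaGCGATCGCgcagg

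The plus strand of the chromosome 9 copy held 45.3% T against 17.9% A, and is called the T-rich strand here. Neither window held an AsiSI motif, and the nearest motifs lay 1814855 bp and 3581238 bp further in. The annotation (GENCODE) places the lincRNA Gm26870 on the minus strand over 3000282 to 3038313 of chromosome 9. The predicted genes Gm10722, Gm11168, Gm10721, Gm10720, Gm10719, Gm10718, Gm10717 and Gm17535 lie on the plus strand inside it, Gm10715 runs from 3036877 to 3038316 on the plus strand, just past its end, and Mir101c lies at 3038669 to 3038743. In all, 95.9% of the chromosome 9 junctions lay within an annotated gene and 37.9% within an exon. Gm26870 alone spans nearly all of the satellite there, so the gene share restates the coverage of the annotation. The share of the window within exons was not computed, so the exon share has no background beside it. The chromosome 12 window held no gene, and the next, the pseudogene Gm9077, began 51874 bp further in.

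The 3 other windows that passed the minimum on the Cas9 bait lie within chromosome arms. They start at position 98660001 of chromosome 2, 19410001 of chromosome 14 and 35300001 of chromosome 9. The same satellite covered 16.8%, 40.3% and 3.86% of them and received 96.0%, 100% and 100% of their junctions. The assembled chromosomes held 95581 bp of satellite in 71 stretches. The end windows held 40.2% (chromosome 9) and 0.268% (chromosome 12) of these bases and received 2224 of 8813 junctions with satellite prey, or 25.2%. The 3 interior windows received 70.8%, and the remaining 50808 bp of satellite received 3.94%. On the AsiSI bait alone there were 4.29 junctions per 100 bp of satellite in the chromosome 9 window and 78.5 in the chromosome 12 window, beside 117, 52.4 and 125 in the interior windows on chromosomes 2, 14 and 9. All of these windows were chosen by their Cas9 junctions per 10 kb, and one with little satellite could pass only with a high density, so the shares and densities describe the choice. A read can be placed only at a copy that the assembly holds, so whether a given junction lay on chromosome 9 or 12 in the cell, or in an unassembled array, cannot be told apart.

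The share of junctions in the end windows varied widely between libraries. Its denominator was the library's junctions on the 19 autosomes and both sex chromosomes, without the 10 kb on either side of the break, and numbered 335 to 17479 per AsiSI library and 2376 to 4731 per Cas9 library. Over the 26 AsiSI libraries the share ran from 0% through a median of 0.319% to 9.79%, and 4 libraries held 1262 of their 1849 junctions, or 68.3%. Intervals below are 95% Wilson intervals and cover counting error only, because PCR reads without molecular identifiers are not independent molecules.

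In the CK-666 experiment the 6 DMSO libraries, replicates 1 to 6, gave 0.530%, 1.60%, 4.03%, 2.59%, 0.115% and 2.93%. The 6 CK-666 libraries gave 0.186%, 0%, 6.47%, 0.817%, 0.404% and 2.86%. The groups overlapped throughout, and both held values from near 0 to over 4%. The library with 0, CK-666 replicate 2, was the smallest, and its 0 of 335 junctions allow a share of up to 0.896%, a limit set here and below at 3 counts of the total (the Wilson interval ends at 1.13%). The share averaged 1.97% ± 1.5 (SD, n = 6) with DMSO and 1.79% ± 2.52 (SD, n = 6) with CK-666. Over the 6 pairs of replicates the log2 ratio of CK-666 to DMSO averaged -0.70 ± 1.84 (SD), with CK-666 lower in 4 pairs and higher in 2 (exact sign-flip test, 2-sided, p = 0.438, adjusted p = 0.438). By pair it was -1.40, -3.45, 0.68, -1.66, 1.66 and -0.03. The first 2 pairs came from 1 sequencing run and averaged -2.42, with the library at 0 in one of them, and the other 4 from another run averaged 0.16, with 2 higher and 2 lower. Without replicate 2 the mean over 5 pairs was -0.15.

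With NU7441 the share was 9.54%, 0.0769% and 0.110% in replicates 1 to 3, and with DMSO 9.79%, 0.369% and 0.269%. Replicate 1 stood far above the others in both groups, at 184 of 1928 junctions with NU7441 (95% interval 8.31% to 10.9%) and 447 of 4567 with DMSO (8.96% to 10.7%). All 3 NU7441 libraries were below their own control, although in replicate 1 the intervals overlapped almost entirely. The direction in replicate 1 depended on the denominator. Over distal junctions alone, which lie more than 10 kb from every AsiSI motif, it was 22.5% with NU7441 and 21.9% with DMSO. The log2 ratio averaged -1.0 ± 0.88 (SD, n = 3; -0.03, -1.75 and -1.20 by pair), and its exact sign-flip p of 0.25 (2-sided, adjusted p = 0.438) is the smallest that 3 pairs can give. Within the run of replicates 1 and 2 the mean was -0.89, and replicate 3 came from a run of its own among these pairs.

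The remaining AsiSI libraries held between 0 and 64 junctions in the windows. Wiskostatin replicate 1 had 1 of 4249 junctions there (0.0235%) and its control 64 of 11939 (0.536%), while in replicate 2 the counts were 8 of 5031 (0.159%) and 3 of 4737 (0.0633%). The pairs ran in opposite directions. With actin R62D, 0 of 4994 and 0 of 1609 junctions lay in the windows, which allows shares of up to 0.0601% and 0.186%. The empty vector libraries had 0 of 8023, which allows up to 0.0374%, and 1 of 997 (0.10%). No test was made over 2 pairs.

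On the Cas9 bait, where the window choice used the counts, shares were 4.30%, 1.87% and 0.926% in the DMSO libraries, beside 2.35%, 1.23% and 0.981% in those given CK-666. All 6 Cas9 libraries came from the sequencing run that also held the second wiskostatin pair, whose AsiSI libraries had 0.159% and 0.0633%. Over distal junctions alone, which lie more than 10 kb from every AsiSI motif, these 2 AsiSI libraries had 0.657% and 0.264% and the Cas9 libraries 0.981% to 4.46%. Across all runs the share of distal junctions had similar medians, 1.77% in the 26 AsiSI libraries and 1.57% in the 6 Cas9 libraries. The AsiSI libraries were spread more widely, from 0% to 22.5%. On the AsiSI bait, whose counts the choice did not use, 22 of the 26 libraries had at least 1 junction in the windows.

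**Figure D1:**
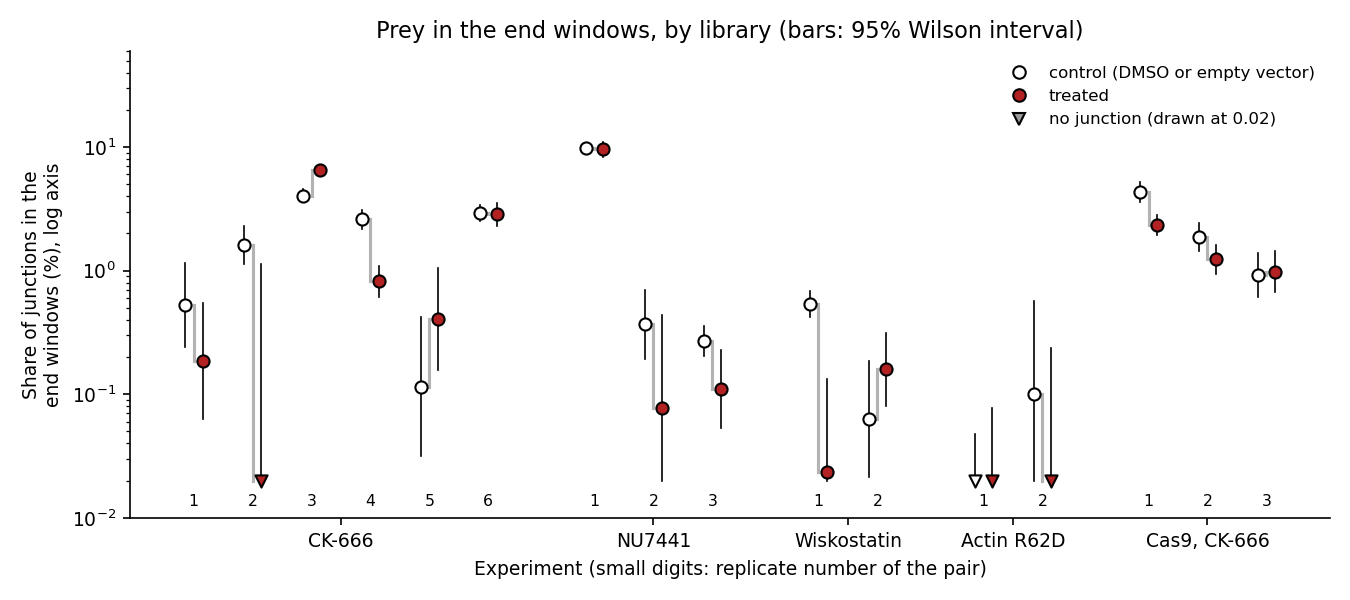
Share of junctions in the end windows (percent, log axis) in each library, with each treated library (red) beside the control of its replicate number (white) and its 95% Wilson interval. Lower ends of intervals under 0.02% are not drawn, and libraries without a junction are triangles. The NU7441 pair 1 sits near 10% in both libraries, and in the CK-666 experiment both groups reach from under 0.5% to over 4%.

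Treated and control libraries of a replicate number came from the same sequencing run. Over the 6 CK-666 pairs the mean log2 share of a pair had an SD of 1.75, and the log2 ratios within pairs had an SD of 1.84. Over the 3 NU7441 pairs the SD of the means was 3.25 and that of the ratios 0.88. For unrelated libraries a mean varies less than a ratio, so the SDs of means and ratios cannot be compared directly. Joins to the interior satellite windows also varied, from 0% to 17.8% of junctions in AsiSI libraries. In the 11 AsiSI libraries with at least 10 junctions in the end windows there were between 0.234 and 0.574 end-window junctions for each interior one (median 0.361). In the 6 Cas9 libraries there were between 0.175 and 0.231 (median 0.224). The minimum was set on the numerator, so the AsiSI range and median partly describe that choice and cannot be set against those of Cas9. Among AsiSI libraries left out, DMSO replicate 2 of the wiskostatin experiment had 3 end-window and 35 interior junctions. DMSO replicate 1 of the CK-666 experiment had 6 and 12. Satellite prey at any assembled copy made up 0% to 29.4% of junctions in AsiSI libraries, with a median of 1.75%, and 5.98% to 23.3% in Cas9 libraries, with a median of 8.43%. What set these levels was not tested.

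Along chromosome 9, prey was found from 3000003 to 3038401, in 39 of the 40 kilobases of the window. The first kilobase received the most, with 147 junctions from 19 libraries against a median of 33.5. Cut into 164 stretches of 1 unit each, the array had junctions in 160, with a median of 6 and at most 74, and the 10 fullest stretches took 27.3%. How far a stretch departed from the majority sequence (4 to 46 differences) ran only weakly with its junctions. Spearman's rho was 0.165 across the 164 stretches, which share reads by their likeness and are not independent. On chromosome 12 all but 1 junction lay within the 256 bp stretch, plus-strand prey towards its start and minus-strand prey towards its end, as the plot of positions shows. Plus-strand prey runs on towards the end and minus-strand prey towards the start, with a median alignment of 104 bases there. The length of the stretch therefore limits where prey of each strand can begin.

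**Figure D2:**
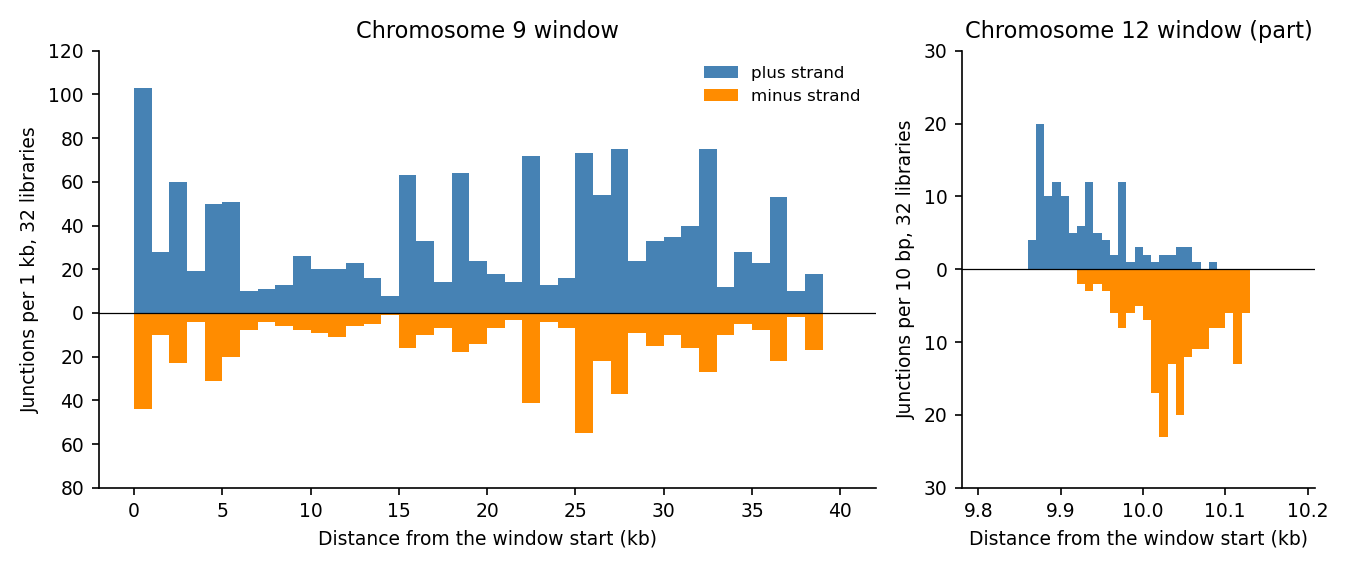
Junctions of all 32 libraries by distance from the window start (kb), plus-strand prey above and minus-strand prey below the line, per 1 kb on chromosome 9 and per 10 bp on the used part of the chromosome 12 window. The first kilobase of chromosome 9 is the fullest, with 147 junctions, and plus-strand prey prevails on chromosome 9 while minus-strand prey prevails on chromosome 12.

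Single positions were mostly used once. The 2225 junctions fell on 1827 combinations of position and strand, 86.9% of which held 1 junction, and 11.5% of which were hit in more than 1 library. Within a library, 4.58% of junctions repeated a position and strand (3.19% on chromosome 9, 13.2% on chromosome 12). The 3 positions with the most AsiSI junctions on chromosome 9 were 3015296 on the plus strand with 9 junctions from 7 libraries, 3027757 on the plus strand with 6 from 6, and 3025584 on the minus strand with 5 from 2. On chromosome 12 they were 3110050 on the minus strand with 8 from 3, 3110056 on the minus strand with 6 from 5, and 3109872 on the plus strand with 5 from 4, which also had 10 Cas9 junctions. The junctions at 3015296 came from 6 different bait ends. Reads at 4 of these positions show how bait passes into satellite, with 20 bait bases first, inserted bases in capitals and then 30 prey bases.
chr9 3015296 plus: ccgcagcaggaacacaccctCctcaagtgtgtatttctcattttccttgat
chr9 3025584 minus: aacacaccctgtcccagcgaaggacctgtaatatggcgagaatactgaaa
chr12 3110050 minus: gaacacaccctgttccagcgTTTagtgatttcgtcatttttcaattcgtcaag
chr12 3109872 plus: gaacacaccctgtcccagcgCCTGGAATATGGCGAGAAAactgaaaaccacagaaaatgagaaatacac

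The second read is a blunt join and has no capitals. In the last read the 19 inserted bases run on with the prey as 1 stretch of satellite.

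A position, however, did not always mark a separate join. Junctions of 1 library often had the same bait end and the same 30 read bases after it, yet were placed at different copies. There were 1955 such read starts for the 2225 junctions, so that 270 junctions, or 12.1%, were in excess of 1 per read start. Among distal prey outside satellite the surplus was 3.76%, and in the interior windows 18.1%. By library it ran from 6.25% to 17.7% in the AsiSI libraries with at least 10 junctions. Read starts were less often met again in another library: 4.65% of those in the end windows were found in more than 1 library and 2.86% in more than 1 run. Removal of duplicates by position keeps such junctions, and whether they were copies of 1 molecule or separate joins was not tested. The fullest read start of each bait is shown with 20 bait bases in lower case and the 30 shared bases in capitals. The AsiSI one was placed at 8 positions between 3000719 and 3032423 of chromosome 9 in DMSO replicate 3 of the CK-666 experiment, and 1 other, in DMSO replicate 1 of the NU7441 experiment, was also placed at 8. The Cas9 one was placed at 10 positions between 3006542 and 3036484 in Cas9 DMSO replicate 1.
AsiSI read start: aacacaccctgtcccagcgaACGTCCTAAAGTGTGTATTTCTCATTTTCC
Cas9 read start: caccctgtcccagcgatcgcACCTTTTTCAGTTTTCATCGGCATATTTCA

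Prey in the windows had a preferred orientation. On chromosome 9, 1342 junctions were on the plus strand and 572 on the minus strand, and on chromosome 12, where the unit is turned round, 121 and 190. Relative to the unit, the prey was read as the T-rich strand in 70.1% of the junctions on chromosome 9 and 61.3% on chromosome 12. On the AsiSI bait these shares were 70.5% and 68.2%. On the Cas9 bait they were 67.4% and 48.6%, with 53 T-rich and 56 A-rich joins on chromosome 12. In the 11 AsiSI libraries with at least 10 window junctions the T-rich share averaged 72.1% ± 10.5 (SD, n = 11; 50.9% to 90.0%), and it was above 50% in all 11. In the 6 Cas9 libraries it averaged 57.3% ± 14 (SD, n = 6; 32% to 68.8%), and was above 50% in 5. Counted by chromosome strand alone, plus-strand prey made up between 50% and 90.0% (median 66.9%) of junctions in the end windows and between 46.5% and 52.0% (median 48.8%) of other distal prey in the AsiSI libraries. The mean difference was 18.6 percentage points ± 9.41 (SD; exact sign-flip test over 11 libraries, p = 0.00195, adjusted p = 0.00455), with 10 libraries higher and 1 lower. In the 7 control libraries alone it was 16.66 (exact sign-flip test, p = 0.0312). On chromosome 12 alone it was -13.73 over 7 libraries, where the unit is turned round. In the interior windows the T-rich share was 60.6%, 64.4% and 56.9% on chromosomes 2, 14 and 9.

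Within the unit the joins were spread out. Of the 2225 junctions 2223 could be placed on the 234 bp unit, and 233 of its positions were used. The fullest position, 123, took 31 junctions or 1.39%, all read as the T-rich strand, from 11 libraries and 17 genomic positions. In bins of 18 bp the T-rich joins of the AsiSI bait were most frequent from 217 to 234, with 9.37% of that bait's window junctions, and from 109 to 126, with 8.61%. The Cas9 bait had 7.45% and 7.98% in the same bins. A-rich joins were fewest from 109 to 126 on both baits, with 1.14% and 0.532%.

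**Figure D3:**
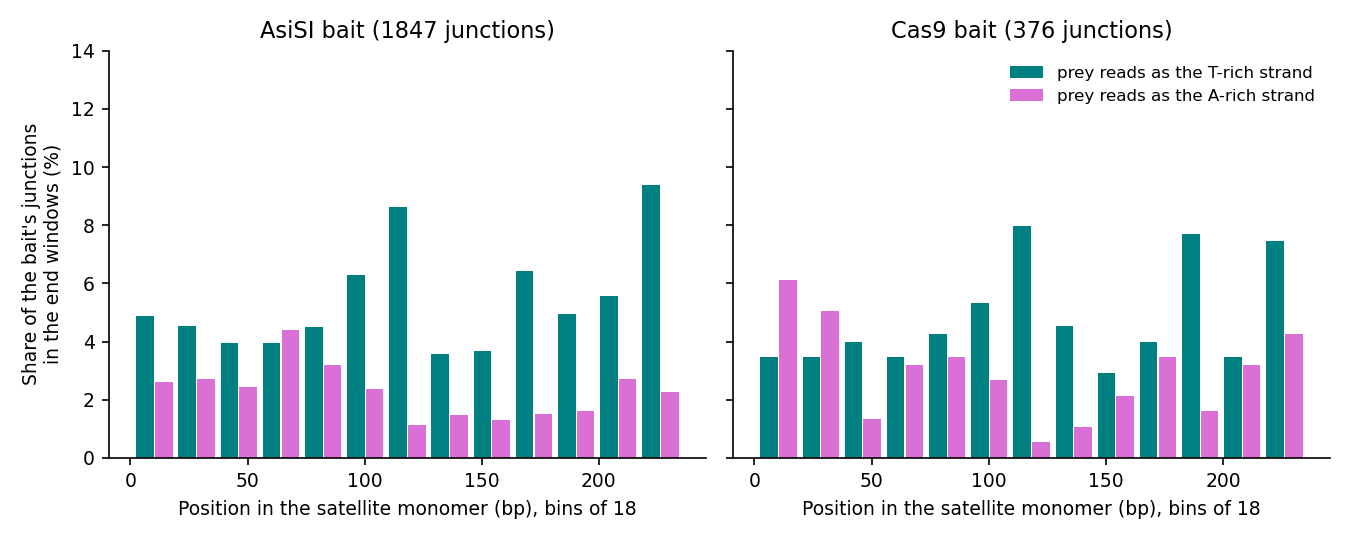
Position within the 234 bp satellite unit (bp, bins of 18) at which the prey began, as a percent of the window junctions of each bait, for prey read as the T-rich (teal) or A-rich (pink) strand. T-rich joins exceed A-rich joins in 12 of 13 bins on the AsiSI bait, and T-rich joins are most frequent from 217 to 234 on the AsiSI bait and from 109 to 126 on the Cas9 bait.

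How the ends were joined was compared between the end windows and other distal prey of the same library, that is prey more than 10 kb from any AsiSI motif and outside satellite, repeat windows and telomeric repeats. Overlap is the number of read bases that fit bait and prey alike, also called microhomology, a blunt join has none, and an insertion has bases that fit neither. The window choice did not use these features. Joins with 6 or more overlapping bases were almost absent from the windows. Their share was between 0% and 1.56% (median 0%) there and between 6.52% and 37.3% (median 28.3%) in other distal prey, and every library was lower in the windows. The mean difference was -23.9 percentage points ± 11.6 (SD; exact sign-flip test over 11 libraries, p = 0.000977, adjusted p = 0.00342), and this p is the smallest that 11 libraries can give. The 11 libraries are 7 controls and treated libraries that each share replicate number and run with a control in the set. They are therefore not all independent, here and in the other tests over 11 libraries. In the 7 controls alone the difference was -19.18 percentage points (exact sign-flip test, p = 0.0156). The longest overlap was 8 bases in the windows and 34 in other distal prey on the AsiSI bait.

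Insertions were more frequent in the windows. They made up between 20.3% and 57.4% of window joins (median 42.7%) and between 9.82% and 40.2% (median 15.1%) of other distal joins, higher in 10 of 11 libraries, by 19.98 percentage points ± 16.5 (SD; exact sign-flip test, p = 0.00391, adjusted p = 0.00683). Many of the inserts were themselves satellite. Of the 174 inserts of 10 or more bases in the windows 127, or 73.0%, matched the unit with at most 20% differences, against 116 of 1549, or 7.49%, in other distal prey. Of these 174 inserts 117 matched it in the same orientation as the prey and 10 in the opposite one alone. With the 30 prey bases that followed, 107 of the 174 inserts (61.5%) formed 1 uninterrupted run of the unit. None of the 174 matched the reference bases before the assigned prey start, and 0 of 1549 did in other distal prey. This count cannot inform, because inserted bases that matched there would mostly have been aligned as prey. In these 107 reads insert and prey could be read as 1 satellite sequence. With inserts of 5 or more bases that ran on with the prey left out, the difference in insertions was 12.25 percentage points (exact sign-flip test over 11 libraries, p = 0.0215). Over both baits the windows held 860 inserts with a median of 4 bases, and 364 had 5 or more. Shorter inserts were not checked and stay in this difference, so whether they too continue the prey was not tested.

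Blunt joins were also more frequent in the windows, between 13.3% and 31.6% (median 21.2%) against 10.5% to 21.3% (median 12.5%), higher in 9 of 11 libraries. The mean difference was 7.01 percentage points ± 6.45 (SD; exact sign-flip test, p = 0.00586, adjusted p = 0.00684). It was 4.74 in the 7 control libraries alone (exact sign-flip test, p = 0.0781) and 4.46 when the 15 libraries with at least 5 window junctions were used (p = 0.124). Overlaps of 1 to 5 bases were higher in 5 and lower in 6 of the 11 libraries, with 38.3% ± 8.66 (SD, n = 11) in the windows and 41.4% ± 10.6 in other distal prey (exact sign-flip test, p = 0.515). The overlapping bases in the windows on the AsiSI bait were most often A (146 joins, 19.9% of those with an overlap), AT (130, 17.8%), T (126, 17.2%) and GA (69, 9.43%). On the Cas9 bait they were most often C (37, 27.0%) and G (27, 19.7%).

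**Figure D4:**
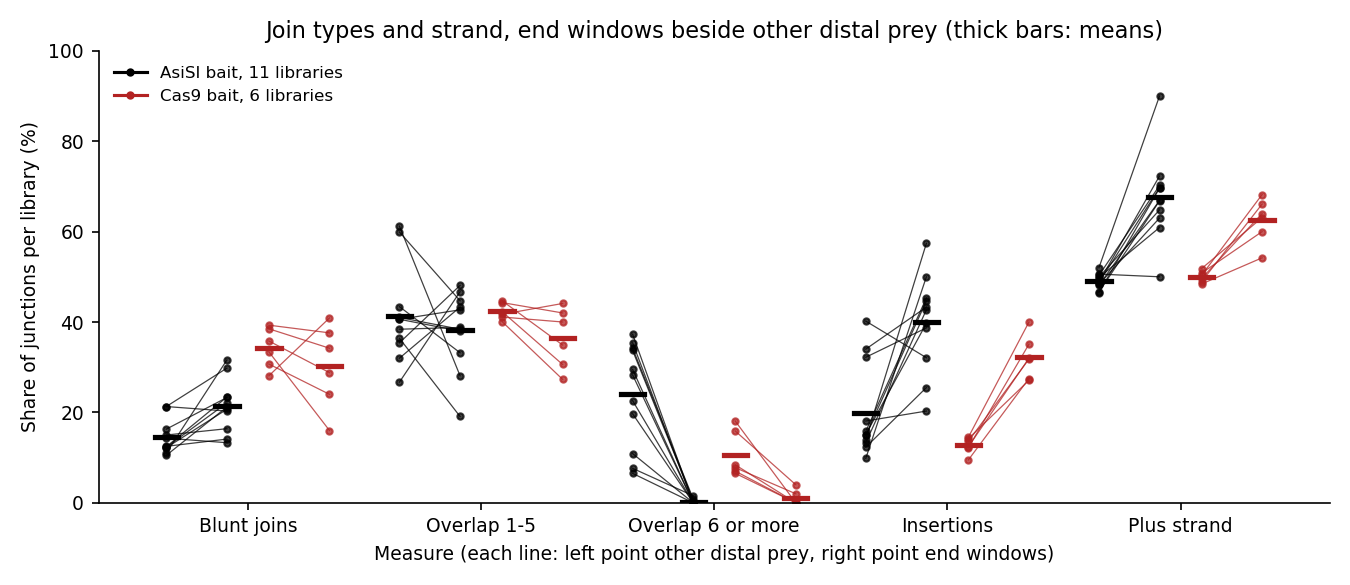
Share of junctions (percent) of each join type and on the plus strand, in other distal prey (left point) and in the end windows (right point) of the same library, for 11 AsiSI libraries (black) and 6 Cas9 libraries (red), with means as thick bars. Overlaps of 6 or more bases fall to between 0% and 1.56% in the windows of every AsiSI library, and insertions rise in 10 of 11.

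The bait ended close to the break in most window joins. In 96.1% of window joins on the AsiSI bait the bait ended within 10 bp of the break, against 77.3% of other distal joins, and 36.2% ended at position 13271321 itself against 23.1%. On the Cas9 bait 96.0% ended that close, against 85.1%, with 45.5% at position 13271323. The Cas9 libraries showed the same kinds of difference as a description: overlaps of 6 or more bases in 1.00% ± 1.67 (SD, n = 6) of window joins and 10.6% ± 5.03 of other distal joins, insertions in 32.3% ± 4.84 and 12.7% ± 1.84, and blunt joins in 30.3% ± 9.25 and 34.3% ± 4.37. Blunt joins were lower in the windows in 5 of the 6 Cas9 libraries, the opposite direction to the AsiSI bait. The difference between baits was not tested.

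NU7441, which blocks the end-joining kinase DNA-PKcs, had at least 10 window junctions in replicate 1 only. Of its 184 window joins 39 were blunt (21.2%, 95% interval 15.9% to 27.7%), 86 had 1 to 5 overlapping bases (46.7%), 0 had 6 or more and 59 had an insertion (32.1%). In its control 104 of 447 were blunt (23.3%, 19.6% to 27.4%), 170 had 1 to 5 overlapping bases (38.0%), 0 had 6 or more and 173 had an insertion (38.7%). The 0 of 184 allows a share of up to 1.63%, and the 0 of 447 up to 0.671%. With 1 pair there is no test of these differences.

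Window prey differed from the reference more than other prey did. Identity to the reference over the aligned bases averaged 95.2% ± 0.721 (SD, n = 11) in the windows and 98.1% ± 1.51 in other distal prey, lower in 10 of 11 libraries (mean difference -2.92 percentage points, exact sign-flip test, p = 0.00488, adjusted p = 0.00683). The median was 95% on chromosome 9 and 96.3% on chromosome 12. Prey alignments were longer in the windows, at 82.3 ± 16 bases against 72.9 ± 12.4 (SD, n = 11; higher in 11 of 11 libraries, exact sign-flip test, p = 0.000977, adjusted p = 0.00342), and the mean difference of 9.42 bases fell to 4.74 once each read start was counted once per library. With the interior satellite windows in place of other distal prey, the differences were 2.85 percentage points for blunt joins, -0.19 for overlaps of 6 or more bases, 2.38 for insertions and -0.23 for identity (exact sign-flip tests, p = 0.0684, 0.375, 0.508 and 0.119). The alignment length turned, at -18.04 bases in the end windows relative to the interior ones (exact sign-flip test, p = 0.00293).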

How the data were processed

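The tables of 32 HTGTS libraries were used, and the 12 Hi-C samples of the series were left aside. Sheared DNA was amplified from a primer next to the bait and run on a MiSeq by the authors, who aligned the reads to mm10 with Burrows-Wheeler Aligner and kept, by the transloc_pipeline at its default settings, junctions with mapping quality above 30, with exact duplicates removed. Versions are not given in the sources used here. The deposited tables list 1 junction per line, unpooled, with positions, strands and the read, and hold no normalized values. No junction lay past a chromosome end of GRCm38. The numbers of bait-only reads to which the study normalizes were not used, so shares say nothing of junctions per cell.

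The share of a library was its window junctions over those on the 19 autosomes and both sex chromosomes, leaving out 10 kb on either side of the break. Its log2 was taken with 0.5 added to the count and 1 to the total. Satellite was found with blastn 2.17.0 (E-value up to 1e-10, at least 50 bp) from the majority of 63 units in the chromosome 9 window. The unit position of a junction was found from 60 reference bases with edlib. Overlap is the last bait base minus the first prey base on the read, plus 1. Other distal prey had fewer than 3 telomeric units. Pairs took the replicate number of the labels, which is also a shared run in every pair. The log2 share of each 1-Mb stretch that held 50 junctions or more, minus its group mean, correlated within pairs at a mean of 0.252 (CK-666), 0.567 (NU7441), 0.617 (Cas9), 0.439 (actin R62D) and 0.063 (wiskostatin). Exact sign-flip tests ran over pairs or libraries, with Benjamini-Hochberg adjustment over 2 share tests and 7 features, in libraries with at least 10 window junctions. They and the unit placement were tested on simulated data. Single positions named are the 3 with the most AsiSI junctions per chromosome, and other sequences were picked after their counts were seen. The windows, measures and alternatives were chosen with earlier results of these data known. Python 3.11.15 with pysam 0.24.0, scipy 1.17.1, matplotlib 3.10.9, pandas 2.3.3 and numpy 2.4.6 was used.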

Additional observations from a re-analysis of the deposited data

How the results depend on the processing

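Neither share result crossed its threshold under any alternative tried, and with 3 pairs NU7441 could not. The log2 ratio for CK-666 turned to 0.05 on chromosome 12 alone and ran from -1.17 to -0.15 when each pair was left out, and that for NU7441 from -1.48 to -0.62. Without the pairing by replicate the ratios were -0.70 (exact permutation test, p = 0.545) and -1.0 (p = 0.50). A pseudocount of 0.1 gave -1.08 and -1.15, and 1 gave -0.54 and -0.86. Over distal junctions alone the ratios were -0.80 for CK-666 and -1.0 for NU7441 (exact sign-flip tests, p = 0.312 and 0.50). With each read start counted once they were -0.70 and -0.95 (exact sign-flip tests, p = 0.406 and 0.50).

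With prey within 500 bp of an AsiSI motif as comparator, blunt joins turned to -0.08 percentage points and overlaps of 1 to 5 bases to 4.58. With the interior windows as comparator, alignment length turned to -18.04 bases, and 4 differences no longer passed: blunt joins (2.85), overlaps of 6 bases or more (-0.19), insertions (2.38) and identity (-0.23). Blunt joins also did not pass at a minimum of 5 junctions (4.46), in controls alone (4.74) or on chromosome 12 alone (0.89), where identity did not pass either (-1.55) and plus-strand prey turned to -13.73. The cause of these changes was not tested. In the 7 controls alone the differences were 21.86 percentage points for insertions, -3.05 for identity and 8.57 bases for length (exact sign-flip tests, p = 0.0156 each).

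Leaving out each library in turn gave 5.65 to 7.81 for blunt joins, -5.43 to -0.12 for overlaps of 1 to 5 bases, -25.66 to -22.54 for overlaps of 6 bases or more, 17.64 to 22.80 for insertions, 16.66 to 20.52 for plus-strand prey, -3.39 to -2.72 for identity and 8.43 to 10.31 bases for length, with no change of call. The alternatives on chromosome 12 alone for the join features, on read starts, on all satellite, on interior windows in place of the end windows, on inserts and on single libraries were chosen after seeing the data. The main tests of the join features left out the 15 of 26 AsiSI libraries with under 10 window junctions, and some of these entered at the minimum of 5. The libraries left out are not all shallow: the 0 in empty vector replicate 1 stood among 8023 junctions and that in CK-666 replicate 2 among 335.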
